A study of Mus musculus with 12 samples.

Results

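De novo nucleotide synthesis was described here through a list of 10 gene symbols: Ppat, Gart, Pfas, Paics, Adsl, Atic and Impdh2 of the purine route, and Cad, Dhodh and Umps of the pyrimidine route. The list was set by gene symbol, but it was chosen with earlier results of these data known. The 10 genes were found by symbol among 23420 genes with read counts in mouse T cells, and all 10 were among the 12759 genes that passed the filter on low counts. The study compared 4 groups of 3 libraries of RNA from spleen of C57BL/6 mice aged 6 to 8 weeks. Fresh wild type and fresh knockout cells were labelled untreated, and stimulated wild type and stimulated knockout cells were cultured for 24 h on bound anti-CD3 plus anti-CD28, each at 1 µg/ml. These antibodies engage the T cell receptor complex and CD28, a costimulatory receptor. Replicate numbers only name the libraries of a group and pair none across groups. All mice carried OT-I, a transgenic T cell receptor that recognises an ovalbumin peptide. The knockout was targeted at Otub1, a deubiquitinase, through CD4Cre, a recombinase whose promoter is active in developing T cells. Deletion would therefore precede maturation of the cells, and CD4 as well as CD8 lineages would carry it. No group was cultured without antibody, so the effects of culture and of stimulation cannot be told apart.

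Purines are built on phosphoribosyl pyrophosphate by a chain of enzymes that ends at inosine monophosphate, from which separate branches lead to AMP and GMP. Pyrimidines are built as a ring first, which is then joined to phosphoribosyl pyrophosphate to give UMP, the precursor of the other pyrimidine nucleotides. Resting lymphocytes cover most of their needs by salvage of bases and nucleosides, whereas dividing lymphocytes depend on de novo synthesis, and drugs that block IMPDH or DHODH are used to suppress immune responses.

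The libraries held 15064488 to 25920035 reads assigned to genes. Counts were scaled by TMM (trimmed mean of M values) and are given as counts per 1000000 counts (CPM), which are shares of a library. In bulk samples fewer cells of a type and less RNA per cell cannot be told apart. The design text named naive CD8 T cells, a cell type tag read splenic DCs, the genotype tag of the knockout read OTUB1-DKO, and the extraction text spoke of fresh splenic cells. The summed level of 7 CD8 T cell markers was 5173 to 5564 CPM in fresh and 1575 to 2058 CPM in stimulated libraries. The summed level of 14 dendritic cell markers was 1326 to 2025 CPM in fresh and 138 to 163 CPM in stimulated libraries, with at most 2 of the 14 at 0 in any library. The 8 B cell markers summed to 141 to 204 CPM in fresh and 21.2 to 30.3 CPM in stimulated libraries, and the 8 myeloid markers to 32.2 to 61.5 and 0.674 to 1.41 CPM. All 4 marker sums were thus lower in stimulated than in fresh cells, and their part in the stimulation contrasts below was not tested. The level of Otub1 in CPM was 72.6, 70.8 and 45.1 in fresh wild type and 25.4, 28.8 and 28.6 in fresh knockout. After stimulation it was 85.7, 100.1 and 96.1 in wild type and 16.2, 13.8 and 14.5 in knockout. Every knockout library was below every wild-type library. Otub1 reads remained in all knockout libraries, at a higher level in fresh than in stimulated cells, and their source was not tested. Y-linked reads were present in 3 libraries, wild-type replicate 3 and knockout replicate 2 among the fresh and knockout replicate 3 among the stimulated libraries. These 3 libraries held 5958 to 9563 Y-linked counts and the others at most 10, so the libraries of those 3 groups were not all from the same mice. Whether each library is a different mouse is not stated in the labels, nor is the sex. The p-values therefore reflect how much these libraries vary, and some of that variation may be technical.

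The genes lie at separate loci of the GRCm38 genome, except for one pair. Ppat (chr5:76913249-76951578, minus strand) and Paics (chr5:76951307-76967509, plus strand) are neighbours that run away from a shared start region, where their annotated exons overlap by 272 bases. Gart (chr16:91621186-91646952, minus strand), Pfas (chr11:68985697-69008460, minus strand), Adsl (chr15:80948490-80970946, plus strand), Atic (chr1:71557150-71579631, plus strand) and Impdh2 (chr9:108560286-108565584, plus strand) complete the purine route. Cad (chr5:31054780-31078479, plus strand), Dhodh (chr8:109591343-109608673, minus strand) and Umps (chr16:33954782-33967038, minus strand) form the pyrimidine route. All 10 are protein coding, and reads were counted over their exons. Annotated antisense transcripts share 1014 exon bases with Gart and 213 with Umps, and Ndufaf3 shares 48 with Impdh2. The strand setting of the counting is not given in the sources used here, so reads from shared bases may have been counted for either gene or for neither.

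Start-site windows of 300 bases, 250 before and 50 after the start, were matched in RefSeq (GRCm38.p6) for 8 of the 10 genes, all but Dhodh and Pfas. Ppat and Paics are shown because they share a start region but did not move alike, Umps because it had the largest rise of the pyrimidine route, and Atic and Impdh2 because both hold an E-box although their rises differed. Each is written 5′ to 3′ on the strand of its gene. Capitals mark 5 motifs searched on both strands: the E-box CACGTG (bound by MYC and MAX among others), the NRF1 core GCATGCG, the ETS motif CCGGAAG, the TATA box TATAAA and the cyclic AMP response element TGACGTCA. The windows lie at chr5:76951529-76951828 for Ppat, chr5:76951052-76951351 for Paics, chr16:33966989-33967288 for Umps, chr1:71556906-71557205 for Atic and chr9:108560186-108560485 for Impdh2.
Ppat: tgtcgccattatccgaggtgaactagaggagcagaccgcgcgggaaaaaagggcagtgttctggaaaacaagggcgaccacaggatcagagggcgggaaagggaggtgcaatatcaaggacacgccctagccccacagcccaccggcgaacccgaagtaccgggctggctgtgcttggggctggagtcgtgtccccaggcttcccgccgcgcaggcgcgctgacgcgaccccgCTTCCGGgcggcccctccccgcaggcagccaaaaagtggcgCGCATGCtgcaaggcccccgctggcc
Paics: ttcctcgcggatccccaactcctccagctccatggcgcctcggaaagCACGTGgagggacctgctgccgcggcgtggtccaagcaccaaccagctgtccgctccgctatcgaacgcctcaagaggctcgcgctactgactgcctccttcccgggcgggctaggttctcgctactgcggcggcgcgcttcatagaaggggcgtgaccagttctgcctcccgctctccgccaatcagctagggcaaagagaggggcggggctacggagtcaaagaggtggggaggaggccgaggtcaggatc
Umps: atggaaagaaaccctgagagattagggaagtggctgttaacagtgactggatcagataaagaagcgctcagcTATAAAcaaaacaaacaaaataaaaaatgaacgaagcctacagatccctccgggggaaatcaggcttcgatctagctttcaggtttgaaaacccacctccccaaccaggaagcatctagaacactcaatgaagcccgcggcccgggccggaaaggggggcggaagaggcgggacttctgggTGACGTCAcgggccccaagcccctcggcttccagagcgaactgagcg
Atic: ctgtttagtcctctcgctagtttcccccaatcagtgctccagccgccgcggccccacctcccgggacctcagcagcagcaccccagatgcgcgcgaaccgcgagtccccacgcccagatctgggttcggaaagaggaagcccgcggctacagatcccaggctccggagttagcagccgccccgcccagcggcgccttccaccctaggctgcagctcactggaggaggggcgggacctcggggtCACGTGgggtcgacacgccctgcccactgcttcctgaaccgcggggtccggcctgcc
Impdh2: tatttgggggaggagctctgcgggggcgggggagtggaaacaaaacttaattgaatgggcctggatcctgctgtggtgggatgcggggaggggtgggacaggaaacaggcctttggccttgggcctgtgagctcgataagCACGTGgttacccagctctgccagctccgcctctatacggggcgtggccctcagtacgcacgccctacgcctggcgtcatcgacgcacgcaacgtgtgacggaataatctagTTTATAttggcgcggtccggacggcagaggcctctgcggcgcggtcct

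The E-box was found in 3 of the 8 windows, starting 203 bases before the start in Paics, 110 before in Impdh2 and 7 before in Atic, and in 7.15% of 32851 RefSeq windows of the same length. The ETS motif was found in 2 of the 8, on the minus strand in Ppat and Gart, against 8.86% of all windows. The start used for the Impdh2 window lies inside the gene span given above (chr9:108560286-108565584), and so does its E-box. The TATA box was found in Umps, starting 178 bases before the start, and on the minus strand in Impdh2, from base 3 after it, against 13.6%. The NRF1 core was found in Ppat alone, on the minus strand, against 3.58%, and the cyclic AMP response element in Umps alone, against 1.79%. No match overlapped another. The windows of Cad and Adsl held none of these letters, which says nothing about binding outside the window or by other sequences. All 8 windows were rich in GC, from 53% in Umps to 69.7% in Atic.

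All 10 genes rose on stimulation in both genotypes, against 40.8% of all genes tested that were called higher in wild type and 41.7% in knockout. A gene was called when its Benjamini-Hochberg adjusted p in edgeR's quasi-likelihood test, fitted over all 12 libraries and 12759 genes, was under 0.05. The median rise of the 10 genes was 1.66 on the log2 scale in wild type and 1.82 in knockout, and the median of all genes was -0.03 and -0.02. The summed level of the 10 genes was 1032 to 1046 CPM in fresh wild type and 3209 to 3277 CPM in stimulated wild type, and 997 to 1062 and 3352 to 3601 CPM in knockout. Stimulation changed most of the transcriptome: 82.3% of genes in wild type and 83.9% in knockout were called in either direction, with 41.4% and 42.2% called lower. Stimulated and fresh libraries did not overlap for any of the 10 genes in either genotype, and this held for 84.1% of all genes in wild type and 84.6% in knockout. The 2 contrasts use different libraries.

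**Figure D1:**
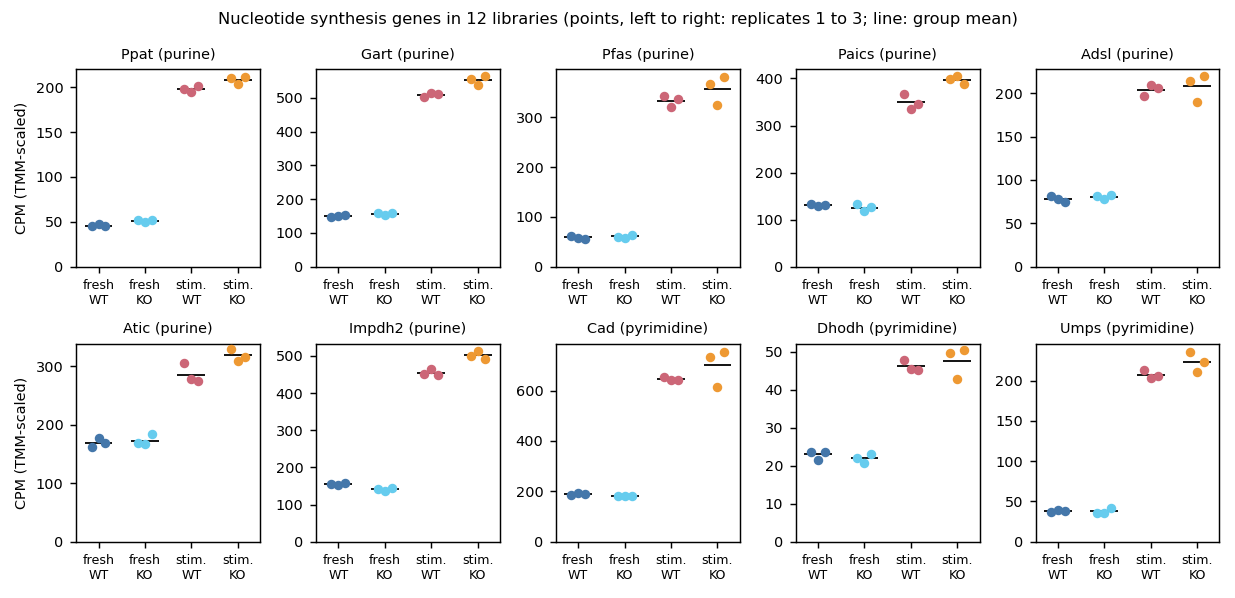
TMM-scaled CPM of the 10 genes in each library, by group, with a line at the group mean. Every stimulated library lies above every fresh library for all 10 genes, and the genotypes lie close together.

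The rise was uneven along the purine route. Ppat encodes amidophosphoribosyltransferase, which commits phosphoribosyl pyrophosphate to purine synthesis. Its level was 45.4, 47.4 and 45.1 CPM in fresh wild type, 198, 194 and 201 in stimulated wild type, 52.4, 50 and 52.1 in fresh knockout and 210.1, 204 and 212 in stimulated knockout. The libraries of a group were tight, and the rise was 4.30-fold in wild type (95% interval 4.04 to 4.58, edgeR adjusted p = 1.27e-15) and 4.05-fold in knockout (3.81 to 4.31, edgeR adjusted p = 1.23e-15). Gart encodes a protein with 3 activities of the route, including the first transfer of a formyl group from folate. It was at 148, 150.3 and 153 CPM in fresh wild type, 502, 514 and 510.1 in stimulated wild type, 158, 154 and 159 in fresh knockout and 556, 538 and 564 in stimulated knockout. Gart rose 3.38-fold in wild type (3.18 to 3.58, edgeR adjusted p = 4.79e-15) and 3.52-fold in knockout (3.31 to 3.73, edgeR adjusted p = 2.36e-15).

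Pfas, phosphoribosylformylglycinamidine synthase, uses glutamine to add a nitrogen to the growing ring. It had the largest rise of the 10 in wild type, from 61.8, 58.5 and 56.4 CPM in fresh to 343, 321 and 336 CPM in stimulated cells, or 5.66-fold (5.15 to 6.22, edgeR adjusted p = 1.31e-14). In knockout it went from 60.4, 57.4 and 64.3 CPM to 367, 325 and 379.8 CPM, with replicate 2 the lowest, or 5.89-fold (5.36 to 6.47, edgeR adjusted p = 7.32e-15). Paics, a bifunctional enzyme that acts after the first ring is closed, was at 134, 129.6 and 130.4 CPM in fresh wild type, 367, 336 and 346 in stimulated wild type, 132, 118 and 127 in fresh knockout and 399, 405 and 387 in stimulated knockout. The rise of Paics was smaller than that of its neighbour Ppat, at 2.66-fold in wild type (2.47 to 2.86, edgeR adjusted p = 4.37e-13) and 3.16-fold in knockout (2.94 to 3.41, edgeR adjusted p = 5.53e-14).

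Adsl and Atic had the smallest rises within the purine route. In wild type, though, the interval of Adsl overlapped those of Paics (2.47 to 2.86) and Impdh2 (2.77 to 3.13). Adsl, adenylosuccinate lyase, which acts both in the ring's assembly and in the branch to AMP, was at 81.0, 78.0 and 74.9 CPM in fresh wild type, 197, 209 and 206 in stimulated wild type, 81.3, 77.6 and 83.1 in fresh knockout and 214, 189.8 and 220.3 in stimulated knockout. Its rise was 2.62-fold in wild type (2.40 to 2.84, edgeR adjusted p = 2.37e-12) and 2.58-fold in knockout (2.38 to 2.80, edgeR adjusted p = 2.09e-12). Atic, the bifunctional enzyme that closes the ring to give inosine monophosphate, was at 161, 177 and 169 CPM in fresh wild type, 305, 278 and 275 in stimulated wild type, 168, 167 and 184 in fresh knockout and 329.6, 309.8 and 317 in stimulated knockout. This was the smallest rise of the 10 in both genotypes, 1.69-fold in wild type (1.56 to 1.83, edgeR adjusted p = 2.52e-09) and 1.84-fold in knockout (1.70 to 2.00, edgeR adjusted p = 3.15e-10). Impdh2 encodes the inducible inosine monophosphate dehydrogenase, which controls entry into the GMP branch. It was at 156, 152 and 157 CPM in fresh wild type, 452, 465 and 447 in stimulated wild type, 141, 136 and 146 in fresh knockout and 500.4, 513 and 493 in stimulated knockout. Its rise was 2.94-fold in wild type (2.77 to 3.13, edgeR adjusted p = 2.22e-14) and 3.56-fold in knockout (3.35 to 3.79, edgeR adjusted p = 3.47e-15).

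The pyrimidine route had a steep rise at its last enzyme and a shallow one at its mitochondrial step. Cad encodes the multifunctional protein that makes carbamoyl phosphate and carries it to dihydroorotate, the regulated start of the route. Its level was 185, 194 and 190.4 CPM in fresh wild type, 653, 643 and 641 in stimulated wild type, 180.2, 182 and 183 in fresh knockout and 736, 616 and 755 in stimulated knockout. Cad rose 3.40-fold in wild type (3.10 to 3.73, edgeR adjusted p = 4.62e-13) and 3.87-fold in knockout (3.52 to 4.24, edgeR adjusted p = 1.2e-13), with replicate 2 of stimulated knockout below all stimulated wild-type libraries. Dhodh, the dihydroorotate dehydrogenase of the inner mitochondrial membrane, was the least abundant of the 10, at 23.6, 21.6 and 23.7 CPM in fresh wild type, 47.8, 45.5 and 45.1 in stimulated wild type, 22, 20.7 and 23.1 in fresh knockout and 49.7, 42.7 and 50.5 in stimulated knockout. It rose 2.01-fold in wild type (1.80 to 2.25, edgeR adjusted p = 4.17e-09) and 2.17-fold in knockout (1.95 to 2.43, edgeR adjusted p = 8.63e-10). Umps, the bifunctional enzyme that turns orotate into UMP, was at 36.6, 38.8 and 38.4 CPM in fresh wild type, 213, 204 and 205 in stimulated wild type, 36.0, 35.5 and 41.3 in fresh knockout and 235, 211 and 224 in stimulated knockout. Its rise was 5.47-fold in wild type (5.00 to 5.98, edgeR adjusted p = 9.32e-15) and 5.94-fold in knockout (5.44 to 6.49, edgeR adjusted p = 4.08e-15).

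**Figure D2:**
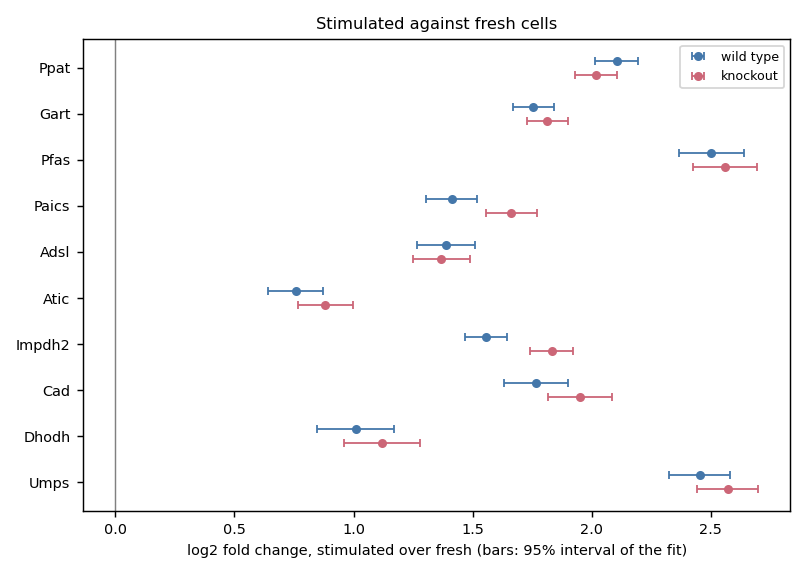
Log2 fold change of the 10 genes, stimulated over fresh, in wild type and knockout, with the 95% interval of the edgeR fit. Pfas, Umps and Ppat lie farthest to the right in both genotypes, Atic and Dhodh lie nearest to 0.

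Per kilobase of annotated exon, the level of the 10 genes spanned a wide range. In fresh wild type the per-kilobase level was highest for Impdh2 (50.3 ± 0.923 CPM per kb, SD, n = 3), followed by Paics (41.9 ± 0.788) and Gart (29.3 ± 0.510). Cad (23.2 ± 0.534) and Atic (21.2 ± 0.980) came next, then Adsl (13.8 ± 0.543), Umps (10.9 ± 0.335) and Ppat (10.4 ± 0.283), with Pfas (7.42 ± 0.342) and Dhodh (3.63 ± 0.193) lowest. Of the neighbours in this order, Umps and Ppat overlapped between libraries, and the others did not. After stimulation in wild type Impdh2 (148 ± 2.99), Paics (111 ± 5.10), Gart (98.8 ± 1.21) and Cad (78.9 ± 0.775) kept the first 4 places in CPM per kb. Umps (59.5 ± 1.42), Ppat (44.7 ± 0.771) and Pfas (42.0 ± 1.44) had passed Adsl (36.2 ± 1.09) and Atic (35.8 ± 2.10), which overlapped each other, and Dhodh stayed last (7.30 ± 0.234). In fresh knockout the order differed in one place, with Ppat (11.6 ± 0.293) above Umps (10.8 ± 0.917), and these overlapped, as did Cad and Atic. In stimulated knockout Ppat (47.2 ± 0.945), Pfas (45.0 ± 3.63), Atic (39.9 ± 1.3) and Adsl (36.9 ± 2.86) overlapped each with the next. These levels rest on one exon length per gene from GENCODE M21, which counts the exons of every annotated transcript.

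The shared profile of the 10 genes, their mean log2 CPM after centring each on its own mean, was followed most closely by Gart (root mean square distance of 0.046 log2 units over the 12 libraries), Impdh2 (0.067) and Cad (0.085). It was followed least closely by Atic (0.454), Pfas (0.405) and Umps (0.396), the genes with the smallest and the largest rises. Outside the pathway lists, 7472 genes with a mean log2 CPM of at least 4 were ranked by the same distance, and the closest 8 were Nhp2l1, Mybbp1a, Ipo11, Set, Dkc1, Abcf2, Eif2s1 and Ppid, at 0.044 to 0.057 log2 units. Their rises in wild type were between 1.59 (Set) and 1.75 (Ppid) on the log2 scale. With 12 libraries in 4 groups, a small distance mainly says that a gene had a rise of the same size.

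In fresh cells the genotypes differed little. None of the 10 genes was called by edgeR, against 1.2% of all genes called in either direction (0.98% higher and 0.219% lower in knockout). An unadjusted p under 0.05 was found for 2 of the 10, Ppat and Impdh2, and for 1803 of all 12759 genes. DESeq2 and limma-voom called none of the 10 either. The fold differences, knockout over wild type, ran from 0.911 (Impdh2) to 1.12 (Ppat), and the median on the log2 scale was 0.01 against -0.00 for all genes. The 3 libraries of one genotype lay apart from those of the other for 4 of the 10 genes, Ppat and Gart with knockout higher and Cad and Impdh2 with knockout lower, against 20% of all genes. Ppat, at 45.1 to 47.4 CPM in wild type and 50 to 52.4 in knockout, had a difference of 0.16 ± 0.04 (log2, SE; edgeR adjusted p = 0.0848). Impdh2, at 152 to 157 CPM in wild type and 136 to 146 in knockout, had a difference of -0.13 ± 0.04 (edgeR adjusted p = 0.155). For the other 8 genes the interval of the difference included 0, and the widest was that of Dhodh, -0.23 to 0.10 on the log2 scale. Among the fresh knockout libraries, replicate 3 was above its group's mean in all 10 genes, by up to 0.14 on the log2 scale, and replicate 2 was below it in 9, by up to 0.09.

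In stimulated cells all 10 genes had positive differences, knockout over wild type, against 6219 of all 12759 genes. By the test 2 of the 10, Paics and Impdh2, rose. All genes tested were called higher in 5.08%, lower in 4.22% and in either direction in 9.3% of cases. The differences of the 10 genes were small, from 1.02-fold (Adsl) to 1.14-fold (Paics), with a median of 0.11 on the log2 scale against -0.00 for all genes. The 8 genes of like pattern named above had differences of 0.0017 (Dkc1) to 0.10 (Set) on the log2 scale, and none was called. They were picked by closeness to the 10 genes over all 12 libraries, these included, so their signs are no separate comparison. Paics was at 336 to 367 CPM in wild type and 387 to 405 in knockout, a rise of 0.18 ± 0.05 (log2, SE; edgeR adjusted p = 0.0257). Impdh2 was at 447 to 465 CPM in wild type and 493 to 513 in knockout, a rise of 0.14 ± 0.04 (edgeR adjusted p = 0.0391). Knockout libraries also lay above all wild-type libraries for Ppat, Gart and Atic, so that groups did not overlap for 5 of the 10 genes, against 27.4% of all genes. Gart (0.12 ± 0.04, edgeR adjusted p = 0.0669), Atic (0.16 ± 0.05, edgeR adjusted p = 0.0838) and Ppat (0.08 ± 0.04, edgeR adjusted p = 0.247) did not pass the edgeR test. DESeq2 called Gart (0.12, adjusted p = 0.0224), and Atic passed without stimulated wild-type replicate 1 (0.21, edgeR adjusted p = 0.027). Cad (0.12, interval -0.01 to 0.25), Umps (0.11, -0.01 to 0.22), Pfas (0.10, -0.02 to 0.22), Dhodh (0.05, -0.11 to 0.20) and Adsl (0.03, -0.09 to 0.14) had overlapping groups.

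In stimulated knockout, replicate 2 was below its group's mean in 8 of the 10 genes, by up to 0.18 on the log2 scale (Cad), and it was the highest of its group for Paics and Impdh2. Without it Cad rose by 0.21 (edgeR adjusted p = 0.00787) and Gart by 0.14 (edgeR adjusted p = 0.0487), and Paics (0.17, edgeR adjusted p = 0.0634) and Impdh2 (0.13, edgeR adjusted p = 0.0907) no longer passed. Paics also lost its call without stimulated wild-type replicate 2 (edgeR adjusted p = 0.105), wild-type replicate 3 (edgeR adjusted p = 0.103) or knockout replicate 1 (edgeR adjusted p = 0.068), and when only the 2 groups were fitted (edgeR adjusted p = 0.0501). The call of Impdh2 was lost in 7 of the 12 fits without 1 library, each of the 6 stimulated libraries and fresh knockout replicate 1, with adjusted p up to 0.155 in edgeR, and in 6 of the 11 other alternatives (up to 0.0848). The differences themselves kept their sign for both genes in all alternatives, at 0.16 to 0.22 for Paics and 0.13 to 0.16 for Impdh2 on the log2 scale. Among the stimulated libraries CD8 T cell markers summed to 1942 to 2058 CPM in wild type and 1575 to 1762 CPM in knockout, and 4 of the 7 (Cd3d, Cd3e, Cd3g and Cd8a) were called lower in knockout, with Cd8a losing its call without knockout replicate 3 (edgeR adjusted p = 0.0632). With stimulation in wild type 12 of the 14 dendritic cell markers fell, against 41.4% of all genes called lower, whereas Batf3 rose from a mean of 2.62 to 16.7 CPM. In stimulated cells 2 of the 14 were called higher in knockout and none lower, against 5.08% and 4.22% of all genes. The differences between genotypes were positive for 5 of the 14, with a median of -0.13 on the log2 scale. Batf3 was at 15.2, 19.9 and 14.8 CPM in wild type and 27.0, 29.8 and 39.9 in knockout (0.95 ± 0.15, log2, SE; edgeR adjusted p = 0.00137), and its call held in all alternatives run. Zbtb46 was at 5.21, 4.09 and 4.53 CPM in wild type and 6.70, 7.79 and 8.91 in knockout (0.76 ± 0.18, edgeR adjusted p = 0.0169), a call lost without stimulated wild-type replicate 2 or 3 or knockout replicate 3 (edgeR adjusted p up to 0.073). The dendritic cell markers summed to 138 to 163 and 150 to 158 CPM, and the B cell markers to 25.4 to 30.3 and 21.2 to 28.5 CPM, with overlap. The part of these differences in the results for the 10 genes was not tested.

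**Figure D3:**
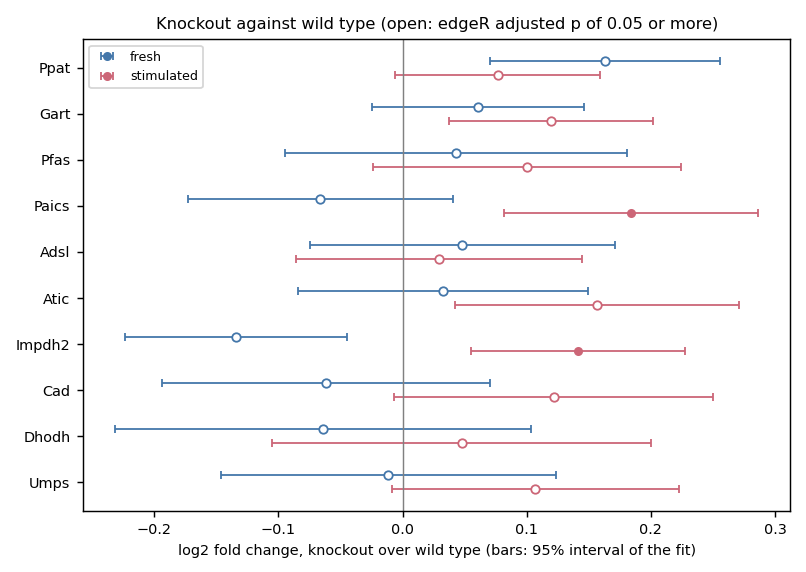
Log2 difference of the 10 genes, knockout over wild type, for fresh and stimulated cells, with the 95% interval of the edgeR fit. In stimulated cells all 10 points lie right of 0 and Paics and Impdh2 were called, and in fresh cells the points fall on both sides and none was called.

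The genotype difference in stimulated cells was compared with that in fresh cells by the interaction of genotype and stimulation, which asks whether the rise was larger in knockout. Impdh2 alone of the 10 passed, with an interaction of 0.28 ± 0.06 (log2, SE; edgeR adjusted p = 0.0228), against 0.698% of all genes called higher, 1.56% called lower and 2.26% called in either direction. Its knockout libraries were the lower in fresh cells and the higher in stimulated cells. The call of Impdh2 was lost without the 3 libraries with Y-linked reads (0.25, edgeR adjusted p = 0.139), and without fresh wild-type replicate 3 (edgeR adjusted p = 0.0646), fresh knockout replicate 1 (edgeR adjusted p = 0.0603) or stimulated wild-type replicate 3 (edgeR adjusted p = 0.0673). Paics had an interaction of 0.25 ± 0.07 (edgeR adjusted p = 0.0733), which DESeq2 called (adjusted p = 0.038), and Cad one of 0.18 ± 0.09 (edgeR adjusted p = 0.306, and 0.0249 without stimulated knockout replicate 2). The interactions of the other 7 genes ran from -0.09 (Ppat) to 0.12 (Atic), and their intervals included 0.

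Ratios of reads per exon base were taken for 3 pairs picked after values had been seen, with 12 exact permutation tests in all. Ppat over Paics, the neighbours with a shared start region, was 0.240, 0.260 and 0.245 in fresh wild type, 0.281, 0.302 and 0.292 in fresh knockout, 0.382, 0.411 and 0.413 in stimulated wild type and 0.374, 0.357 and 0.388 in stimulated knockout. Stimulated libraries were above fresh ones in both genotypes (exact two-sided p = 0.1 each), and knockout was above wild type in fresh cells (exact p = 0.1) but overlapped it in stimulated cells (exact p = 0.2). Impdh2 over Impdh1, its constitutive paralog, was 1.22, 1.13 and 1.23 in fresh wild type, 0.981, 0.905 and 1.06 in fresh knockout, 3.75, 3.78 and 3.98 in stimulated wild type and 3.49, 3.49 and 3.35 in stimulated knockout. The ratio was lower in knockout than in wild type in both states and higher in stimulated than in fresh cells (exact p = 0.1 in each of the 4 tests). With 3 libraries a group 0.1 is the smallest p these tests can give, and it is 0.12 after Benjamini-Hochberg adjustment over the 12. Ctps over Ctps2, the CTP synthases, was 0.476 ± 0.0447 in fresh and 5.54 ± 0.110 in stimulated wild type, and 0.4998 ± 0.0399 in fresh and 6.64 ± 0.906 in stimulated knockout (SD, n = 3). Stimulated libraries were above fresh ones in both genotypes, and knockout was above wild type in stimulated cells (exact p = 0.1 in each of the 3 tests) but overlapped it in fresh cells (exact p = 0.5).

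**Figure D4:**
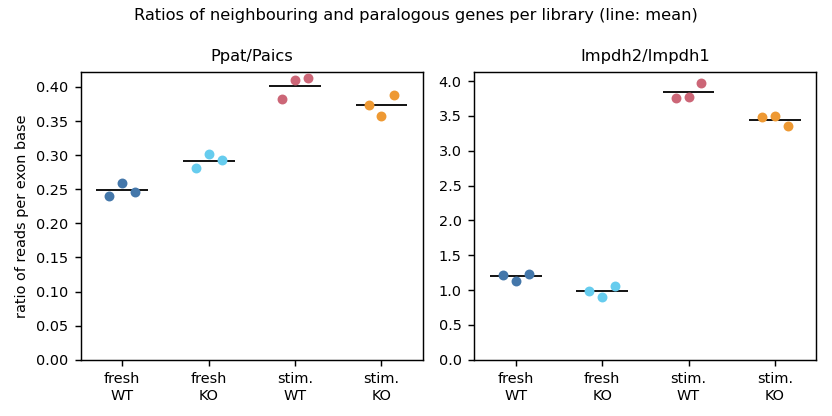
Ratio of reads per exon base for Ppat over Paics and for Impdh2 over Impdh1 in each library, with a line at the group mean. Both ratios are higher in all stimulated than in all fresh libraries, and Impdh2 over Impdh1 is lower in knockout in both states.

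Other genes of nucleotide metabolism were taken from 11 lists with 94 genes, of which 83 were tested. In wild type 52 of the 83 rose and 23 fell with stimulation (40.8% and 41.4% of all genes), and in knockout 52 rose and 20 fell. The folate list, which supplies the one-carbon units used by Gart and Atic, had 10 of 13 higher, with Mthfd2 from 25.1 ± 1.58 to 381 ± 7.72 CPM in wild type (SD, n = 3) and Shmt1 from 15.7 ± 0.223 to 170.5 ± 1.77 CPM. The list of CTP and thymidylate synthesis had 6 of 7 higher: Ctps, which turns UTP into CTP, rose by 2.27 on the log2 scale, whereas Ctps2 fell by 1.27. Ribonucleotide reductase, which makes deoxynucleotides, was split: Rrm1 rose by 2.65, Rrm2 rose by 3.02 and Rrm2b fell by 0.19. In purine salvage 5 of 6 rose, among them Hprt (1.32) and Aprt (1.39), the enzymes that recycle free bases. Of the enzymes that make phosphoribosyl pyrophosphate, Prps1 rose by 1.11 and Prps2 fell by 0.25. Prps1l3 rose by 0.92, and how reads were split between Prps1 and this like copy is not known. In the branches from inosine monophosphate Gmps (1.62) and Adss (1.04) rose, and Impdh1 fell by 0.13. Nucleotide breakdown was mixed, with 6 higher and 8 lower of 17, and so was pyrimidine salvage, with 3 higher and 3 lower of 6. Myc, a factor known to bind the E-box, went from 222, 219 and 215 CPM to 706, 755 and 710.4 CPM in wild type, a rise of 1.73 (edgeR adjusted p = 7.31e-14).

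**Figure D5:**
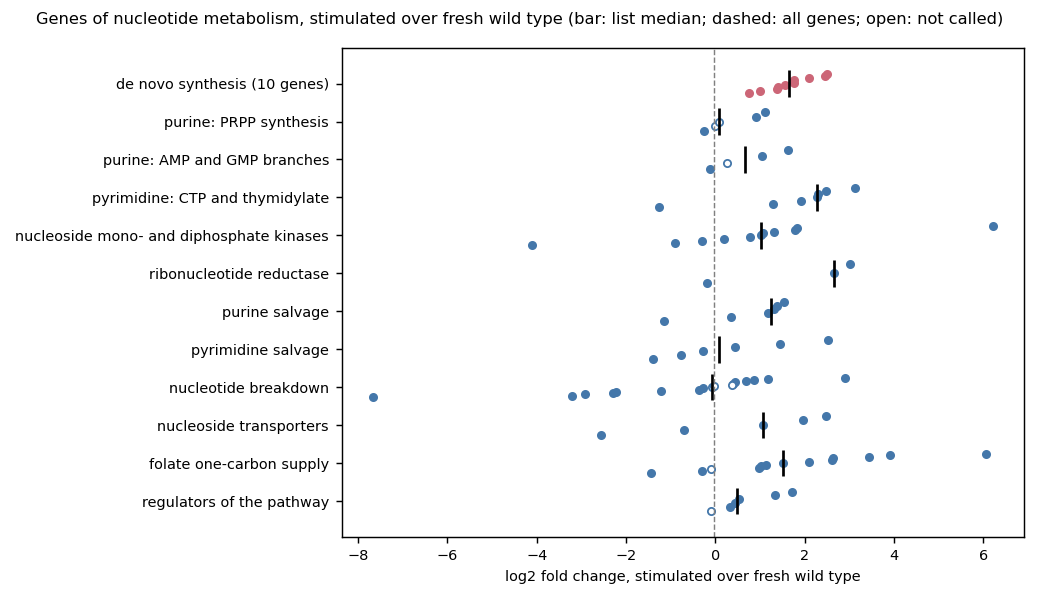
Log2 fold change, stimulated over fresh wild type, of each tested gene in the 10 genes and in the 11 lists of nucleotide metabolism. Filled points were called by edgeR, bars mark list medians and the dashed line marks the median of all genes. The 10 genes have a median of 1.66, and breakdown, with a median of -0.07, spreads to both sides.

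Between genotypes, 9 of the 83 were higher and 5 lower in stimulated knockout (5.08% and 4.22% of all genes). Among the 9 were Impdh1, Gmps, Prps1, Rrm1, Rrm2, Dck and Ak4. Impdh1, at 129, 132 and 120.5 CPM in wild type and 154, 157 and 157 in knockout, rose by 0.30 ± 0.05 (log2, SE; edgeR adjusted p = 0.00129). Gmps, GMP synthetase, which follows IMPDH in the branch, was at 205, 188 and 199 CPM in wild type and 222, 241 and 222 in knockout, a rise of 0.21 ± 0.05 (edgeR adjusted p = 0.00983). These were the 2 called of the 4 genes listed for the branches from inosine monophosphate, and both calls held in all alternatives run. Adss, of the branch to AMP (-0.02, interval -0.13 to 0.09), did not pass. Prps1 rose by 0.26 ± 0.06 (edgeR adjusted p = 0.0169), a call lost without stimulated wild-type replicate 2 or 3 or knockout replicate 1 (edgeR adjusted p up to 0.0948). The call of Dck, deoxycytidine kinase (0.25 ± 0.07, edgeR adjusted p = 0.0465), was lost in 9 of the 12 fits without 1 library and in 3 other alternatives (edgeR adjusted p up to 0.214). The 5 lower genes were Uckl1, Samhd1, Slc28a2, Slc29a3 and Aldh1l1: Samhd1, which degrades deoxynucleotides, fell by 0.56, and Slc28a2, a purine nucleoside carrier, fell by 0.64. The call of Aldh1l1 was lost in 5 of the 12 fits without 1 library and in 2 other alternatives (edgeR adjusted p up to 0.117), and that of Slc29a3 without stimulated wild-type replicate 3 (edgeR adjusted p = 0.109) or knockout replicate 2 (edgeR adjusted p = 0.0654). In fresh cells Ada, adenosine deaminase, was the only one of the 83 called, against 1.2% of all genes. It was at 7.35, 8.67 and 9.19 CPM in wild type and 12.5, 12.6 and 11.0 in knockout (edgeR adjusted p = 0.048). An unadjusted p under 0.05 was found for 12 of the 83 and for 1803 of all 12759 genes. The call of Ada was lost in 9 of the 12 fits without 1 library.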

How the data were processed

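RNA sequencing measured messenger RNA in 12 libraries, in 4 groups of 3 taken from the source labels. Per the submitters' processing notes the authors used TopHat, TopHat2, HTSeq and DESeq2 with the mm10 build, with versions, annotation and strand setting not given in the sources used here. The authors deposited 1 table per library of raw read counts per gene symbol, whole numbers with no normalization. The 5 HTSeq summary lines, 5.22% to 6.43% of each table, were left out. Library totals were 15064488 to 25920035 counts. Within groups, counts of any pair of libraries varied beyond counting error (chi-square over its degrees of freedom, 4.26 to 18.6), so none was treated as a copy.

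Genes were kept by filterByExpr (12759 of 23420), scaled by TMM (factors of 0.988 to 1.01) and tested with edgeR 4.0.16 (quasi-likelihood, R 4.3.3), 1 fit over 12 libraries with 8 residual degrees of freedom and 5 contrasts. P-values were adjusted over all genes tested, with a threshold of 0.05, and the script was tested on simulated data. CPM are TMM-scaled. Standard errors are the fold change over the root of F. Alternatives were DESeq2 1.42.0, limma-voom (limma 3.58.1), other scalings and filters, only the groups compared, libraries with at least 50 Y-linked counts left out or as a covariate, and each library left out. Exon lengths came from GENCODE M21. The members, lists and tests were chosen with earlier results of these data known. Named genes were the members, and of each other list those called between genotypes, up to 3 highest and 3 lowest called with stimulation, and alternative enzymes. Some of the listed genes that entered the counts are not reported here by name.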

Additional observations from a re-analysis of the deposited data

Results flagged for a closer look

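The genotype difference differed between stimulated and fresh cells, by the edgeR interaction test, for 5 of the listed genes and markers. These were 1 of the 10 genes, 1 of the 83 other pathway genes and 3 of the 7 CD8 T cell markers, against 2.26% of all genes. Otub1, the gene targeted in the knockout, was called as well, at -1.59 to -1.24 in the alternatives run (edgeR adjusted p up to 0.013). For Impdh2 the interaction was 0.28 on the log2 scale, with knockout lower in fresh and higher in stimulated cells. This call was lost in 3 of the 12 fits without 1 library and when the 3 Y-linked libraries were left out. For Slc28a2, the purine nucleoside carrier, it was -0.70 (edgeR adjusted p = 0.0339), with 174 to 189 CPM in fresh wild type, 176 to 203 CPM in fresh knockout, 25.8 to 37.7 CPM in stimulated wild type and 17.0 to 22.9 CPM in stimulated knockout. This call was lost in 7 of the 12 fits without 1 library, with robust estimation and without the Y-linked libraries (edgeR adjusted p up to 0.125). Among T cell markers it was -0.35 for Cd3d, -0.27 for Cd3e and -0.40 for Cd3g, which encode chains of the CD3 complex. The call of Cd3e was lost in 11 of the 12 fits without 1 library and in 2 other alternatives (edgeR adjusted p up to 0.203). That of Cd3g was lost without fresh wild-type replicate 2 (edgeR adjusted p = 0.0505) or stimulated wild-type replicate 3 (edgeR adjusted p = 0.0528), and that of Cd3d held in all alternatives run. Cd3d was at 417 to 444 CPM in fresh wild type, 397 to 427 in fresh knockout, 203 to 213 in stimulated wild type and 154 to 159.8 in stimulated knockout. With 3 libraries a group, single libraries were not tested as outliers.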

How the results depend on the processing

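Both genotypes kept all 10 genes called higher with stimulation in every alternative and in every fit without 1 library. Upper quartile scaling moved the median of all genes in wild type from -0.03 to -0.15 on the log2 scale, and no call of the 10 with stimulation was lost. The 2 calls in stimulated knockout became 3 with DESeq2, 1 with no TMM, with upper quartile factors, with no filter, with the Y-linked libraries left out and with Y-linked reads as a covariate, and 0 with only the 2 groups compared, and were 0 to 2 without 1 library. The 1 interaction call became 2 with DESeq2 and 0 with the Y-linked libraries left out, and was 0 to 2 without 1 library. Of the other pathway genes, the 1 higher in fresh knockout became 2 with DESeq2, no TMM or no filter and 0 with limma-voom, upper quartile factors, only the 2 groups or without the Y-linked libraries, and was 0 to 1 without 1 library. The 0 lower there became 1 with Y-linked reads as a covariate. In stimulated knockout the 9 higher were 5 to 12 and the 5 lower 3 to 5 without 1 library. The 0 higher in the interaction became 3 with DESeq2, no filter or robust estimation, 2 with the covariate and 1 with upper quartile factors, and were 0 to 3 without 1 library. The 1 lower became 2 with DESeq2, no TMM, no filter or a filter of 1 CPM and 0 without the Y-linked libraries, and was 0 to 2 without 1 library. Single differences near 0 changed sign. In fresh cells Umps (-0.01) became 0.0045 with no TMM, 0.042 without the Y-linked libraries and 0.015, 0.024 and 0.035 without replicate 2 of wild type and without replicates 1 and 2 of knockout in turn, with a range of -0.078 to 0.035 without 1 library. Dhodh (-0.06) became 0.0042 without the Y-linked libraries, and Atic (0.03) became -0.0082 without knockout replicate 3, with a range of -0.0082 to 0.075. In stimulated cells Adsl (0.03) became -0.0098 without the Y-linked libraries and -0.014 without knockout replicate 3, with a range of -0.014 to 0.092. The interaction of Adsl (-0.02) became 0.0081, 0.00016, 0.00013 and 0.045 without fresh wild-type replicate 3, fresh knockout replicate 3, stimulated wild-type replicate 2 and stimulated knockout replicate 2, with a range of -0.062 to 0.045. The cause was not tested.

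No paired analysis was possible because the labels give no replicate numbers that groups share, and the numbers printed here only name libraries within a group. The lowest count of any of the 10 genes in any library was 356 (Dhodh), the gene whose precision counting limits most.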

Other observations

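Outside the de novo routes, Aldh1l2, the mitochondrial formyl-tetrahydrofolate dehydrogenase, rose by 6.06 on the log2 scale with stimulation in wild type (edgeR adjusted p = 4.49e-14). Ampd1, an AMP deaminase, fell by 7.67 (edgeR adjusted p = 5.04e-14) and Xdh, xanthine dehydrogenase of purine breakdown, fell by 2.92 (edgeR adjusted p = 7.31e-12). The nucleoside carriers Slc29a1 and Slc29a2 rose by 1.97 and 2.47, and Tk1, the thymidine kinase of dividing cells, rose by 2.53. Ak4, an adenylate kinase of mitochondria, was at 42.5, 44.0 and 18.8 CPM in stimulated wild type and 69.6, 125 and 71.1 CPM in stimulated knockout, against under 0.8 CPM in all fresh libraries.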
